A study of Mus musculus with 6 samples.

Results

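The genes described here encode the nuclear subunits of the mitochondrial oxidative phosphorylation complexes, examined for accessible chromatin in mouse liver. They were chosen by name from the RefSeq annotation of GRCm38.p6 (the mm10 build), as protein-coding nuclear genes whose symbol begins with Nduf, Uqcr, Atp5, Sdha, Sdhb, Sdhc, Sdhd, Cox4, Cox5, Cox6, Cox7 or Cox8. This rule found 100 of the 21887 protein-coding genes, of which 49 were counted with complex I, 8 with complex II, 8 with complex III, 18 with complex IV and 17 with complex V. Among them 84 are structural subunits and 12 are assembly factors (Ndufaf1 to Ndufaf8 and Sdhaf1 to Sdhaf4), which the prefixes Nduf and Sdha take in. The remaining 4 are the paralogues Ndufb4b, Ndufb4c, Ndufa4l2 and Cox7a2l. A further 19 genes with such symbols are annotated as pseudogenes and were left out. Ndufa4 and Ndufa4l2 were counted by symbol with complex I, although the Ndufa4 protein is now regarded as a subunit of complex IV.

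Oxidative phosphorylation takes place in the inner mitochondrial membrane. Complex I oxidises NADH and complex II oxidises succinate, and both pass electrons to ubiquinone. Complex III hands them on to cytochrome c, complex IV reduces oxygen to water, and complex V, the ATP synthase, uses the resulting proton gradient to make ATP. Apart from complex II, each complex also contains subunits encoded by mitochondrial DNA, so that nuclear and mitochondrial genes are expressed together. Several nuclear subunits of complex IV exist as a widely expressed form and a form found mainly in muscle, heart, lung or testis. Nuclear respiratory factor 1 (NRF1), the ETS factor GABPA, YY1 and the estrogen-related receptors are known regulators of genes of this pathway, and liver is an organ rich in mitochondria.

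Open chromatin was mapped by ATAC-seq, which marks DNA that a transposase can reach, in livers of wild-type males fed a high-fat diet. Per the labels there were 3 libraries of the strain C57BL/6J and 3 of 129S1/SvImJ, and animal ages and the origin of replicates in separate animals were not given in the sources used here. The protocol names the transposed cells by an abbreviation, LMs, that it does not explain, and all 6 libraries carry an antibody label, Esrrg, although ATAC-seq uses no antibody. The deposited list combined the libraries and gave positions only, so the strains were not compared, every value below is a count or a position in the combined list, and the depth behind each interval is unknown.

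The list held 120905 intervals of 201 to 401 bp on 21 chromosomes, and 46.2% of them had the narrowest width of 201 bp. The tissue was checked by the presence of an interval within 1 kb of either end of marker genes. Such an interval was present in 9 of 10 hepatocyte markers, 4 of 10 macrophage markers and 4 of 10 skeletal muscle markers, beside 61.5% of all protein-coding genes. With intervals wider than 201 bp alone the counts were 6, 1 and 4 of 10, beside 51.7%. Counting all widths, the macrophage genes Cd68, Lyz2, Marco and Timd4 had an interval at an end. Adgre1, C1qa, Csf1r, Clec4f, Vsig4 and Cd5l had none there, although Csf1r had 3 inside its span. The hepatocyte gene without one at an end was Fgb, and the muscle genes with one were Actn3, Ckm, Myh4 and Mylpf. Over annotated start windows an interval was present in 3 of the 8 hepatocyte markers, 3 of the 7 macrophage markers and none of the 8 muscle markers that had a start entry, beside 52.1% of protein-coding genes. Wider intervals lay there in 2 of the 8 hepatocyte markers, beside 44.4% of protein-coding genes, and in none of the macrophage or muscle markers.

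Nearly all oxidative phosphorylation genes lay close to at least 1 interval. Within the gene span and 10 kb to either side, 98 of 100 genes had an interval (98%), beside 83.9% of all protein-coding genes. The median was 3 intervals per gene (quartiles 2 and 4), equal to the median of 3 over all protein-coding genes (quartiles 1 and 5), although the oxidative phosphorylation genes were shorter, with a median span of 7.34 kb against 17.2 kb. By number of intervals, 15 genes had 1, 20 had 2, 24 had 3, 22 had 4 and 17 had 5 or more. The 2 genes without any were Ndufb4b, a copy of the complex I subunit gene Ndufb4 with a span of 0.471 kb, and Cox8c, a testis form of a complex IV subunit. The genes with the most intervals were Ndufaf2 (12), Ndufs4 (11) and Ndufaf6 (8) in complex I, Sdhc (6), followed by Sdha, Sdhaf3, Sdhb and Sdhd (4 each), in complex II, and Uqcr11, Uqcrfs1 and Uqcrq (3 each) in complex III. In complex IV they were Cox7a2 (7), followed by Cox6a1, Cox7a1 and Cox7b (4 each). In complex V they were Atp5o (7), followed by Atp5a1, Atp5b, Atp5c1, Atp5d, Atp5g2, Atp5g3, Atp5j and Atp5mpl (4 each). Together the 100 genes had 324 intervals, and none of these was counted for more than 1 of the genes.

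**Figure D1:**
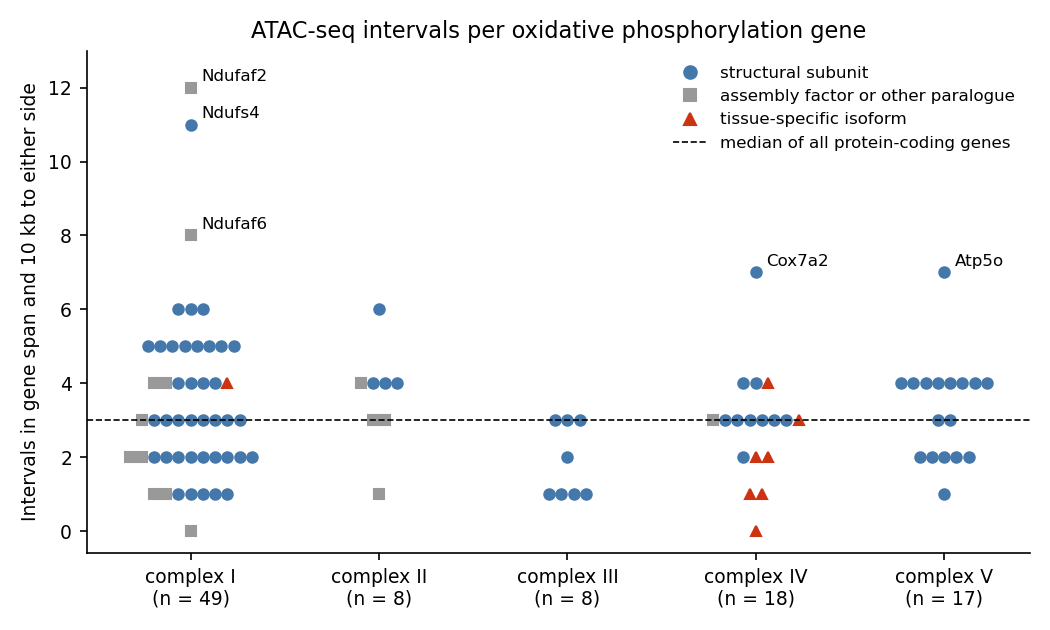
Number of ATAC-seq intervals in the gene span and 10 kb to either side (vertical axis) for each of the 100 genes, by complex (horizontal axis); each point is a gene, with shape and colour giving its class, and the dashed line is the median of 3 over all protein-coding genes. Most points lie between 1 and 5, and Ndufaf2 (12), Ndufs4 (11) and Ndufaf6 (8) stand above the others.

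Intervals sat at the ends of most of these genes. An interval overlapped the 1 kb to either side of a gene end in 90 of 100 genes (90%), beside 61.5% of all protein-coding genes. The background was 69% without genes with chemoreceptor, Gm- or Rik-type names. With intervals wider than 201 bp alone the count was 85 of 100, beside 51.7% of all protein-coding genes. For all widths, 11335 of the 21887 protein-coding genes had an interval at 1 end and 2118 at both ends. Among the oxidative phosphorylation genes 80 had one at 1 end and 10 at both, the latter share being close to the background. For 82 of the genes the RefSeq promoter table gave at least 1 start window, which runs from 250 bases before to 50 bases after an annotated transcription start. An interval overlapped such a window in 72 of these 82 genes (87.8%), beside 52.1% of 17492 protein-coding genes, or 60.4% without the genes of those name types. Genes with no start entry included Ndufa2, Ndufa4l2, Ndufaf6, Ndufb4c, Ndufb9, Ndufs1, Sdhc, Uqcrb, Uqcrc2, Uqcrq, Cox4i1, Cox4i2, Cox6a2, Cox6c, Cox8c, Atp5a1 and Atp5mpl. Of the 18 without an entry 13 had an interval at a gene end, beside 2732 of the 4395 protein-coding genes without an entry. At a gene end or over a start window, 92 of 100 genes had an interval, beside 64.2% of all protein-coding genes. The genes and the background were compared by these counts alone, and the differences were not tested.

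Complex I, the NADH dehydrogenase, is the largest complex and had an interval at a gene end in 46 of its 49 genes (93.9%), in 45 of them with an interval wider than 201 bp. All 8 Ndufaf assembly factor genes, all 15 genes whose symbols begin with Ndufa and are not assembly factors (Ndufab1 and Ndufa4l2 included), all 3 Ndufv genes and both Ndufc genes were among the 46, together with 11 of 13 Ndufb genes. Among the core subunits, Ndufv1, which carries the flavin, had a 202 bp interval centred 81 bp upstream of its start. Ndufs3 had a 265 bp interval centred 20 bp downstream of the start, and Ndufs8 a 254 bp interval centred 157 bp upstream. For Ndufv2 and Ndufs7 the interval was 204 and 223 bp wide and centred 64 and 125 bp upstream, and for Ndufs1 an interval of 218 bp lay at the higher-coordinate end.

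Among the complex I genes without an interval at an end were Ndufb4b and Ndufb4c, with spans of 0.471 and 0.485 kb. Their nearest intervals lay 18750 and 2512 bp from a gene end, whereas Ndufb4, the parent copy, had a 292 bp interval centred 130 bp upstream of its start. Reads from near-identical copies cannot always be placed. How alike Ndufb4, Ndufb4b and Ndufb4c are, and whether reads could be placed in them, was not tested, so their values are uncertain.

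Complexes II and III had an interval at a gene end in every gene. In complex II, succinate dehydrogenase, all 8 genes had one, 7 with an interval wider than 201 bp. Sdha, the flavoprotein that oxidises succinate, had an interval of 334 bp centred 83 bp upstream of the start. Sdhb, the iron-sulfur subunit, had 246 bp centred 1 bp upstream. Sdhd, a membrane anchor, had intervals at both ends, one of 310 bp near its lower-coordinate end and one of 273 bp whose centre lay 145 bp before its start. The assembly factor Sdhaf2, which attaches the flavin to Sdha, had 2 intervals over its start, both 201 bp wide, and was the gene of complex II with no wider interval at an end. Sdhc, the other membrane anchor, had the most intervals of the complex, 6 in the span and flanks.

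All 8 complex III genes had an interval wider than 201 bp at an end, and their median of 1.5 intervals in span and flanks was the lowest of the complexes. Uqcrc1, a core subunit, had a single interval, 249 bp wide and centred 83 bp upstream of the start. Uqcrfs1, the Rieske iron-sulfur protein, had a 205 bp interval centred 79 bp upstream, and Uqcrc2, the other core subunit, a 217 bp interval at its lower-coordinate end. At Uqcrh, the hinge protein gene, the interval of 240 bp was centred 401 bp upstream and missed the start window. Uqcrq and Uqcr11, small subunits, had 3 intervals each, and their intervals at an end were 281 and 226 bp wide.

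For complex V, the ATP synthase, 16 of 17 genes (94.1%) had an interval at a gene end, and 14 of 15 had one over a start window. Atp5b, the catalytic beta subunit, had a 225 bp interval centred 262 bp upstream of its start. Atp5c1, the gamma subunit of the central stalk, had 207 bp centred 13 bp downstream, and Atp5a1, the alpha subunit, had an interval of 216 bp at its lower-coordinate end. The interval of Atp5h, a stator subunit, was the widest at an end of any of the 100 genes, at 376 bp. The next widest were those of Ndufa2 (353 bp), Sdha (334 bp), Ndufb8 (317 bp) and Cox6c (315 bp). The 3 genes for the membrane ring subunit c differed in the distance of the interval from the start, with centres 240 bp upstream at Atp5g1, 114 bp upstream at Atp5g2 and 40 bp upstream at Atp5g3. Atp5o had the most intervals of the complex, with 7 in span and flanks, of which 5 were 201 bp wide. At Atp5l the nearest interval was 201 bp wide, centred 202 bp downstream, and outside the start window.

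Complex IV, cytochrome c oxidase, had the lowest share, with an interval at a gene end in 12 of 18 genes (66.7%), beside the 61.5% of all protein-coding genes, and in 10 of 18 with wider intervals alone. Of its 6 genes without one, 5 were tissue-specific isoforms and the other was Cox5a. In Cox5a, the only gene for this subunit, the annotated start lies 3904 bp inside the gene span, and a 243 bp interval was centred 14 bp downstream of it. Atp5d, the delta subunit of the ATP synthase and the gene missing from the complex V count, showed the same arrangement, with a start 3617 bp inside the span and a 213 bp interval centred 18 bp upstream of it. Cox5b had a 236 bp interval centred 81 bp upstream of a start at the end of its span. Counted at an end or over a start, the shares were 46 of 49 for complex I, 8 of 8 for II, 8 of 8 for III, 13 of 18 for IV and 17 of 17 for V.

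**Figure D2:**
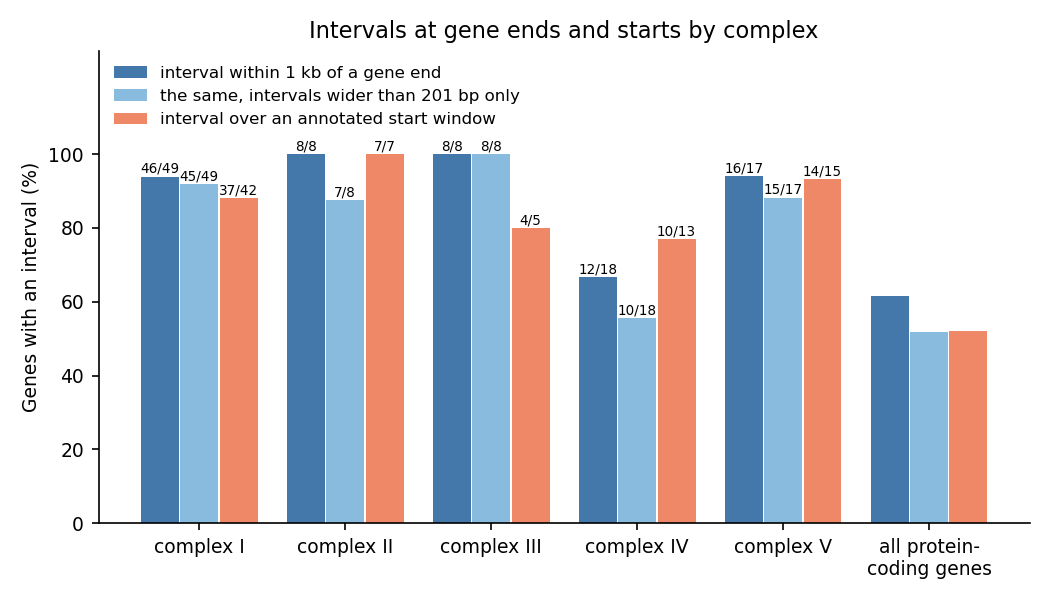
Percentage of genes (vertical axis, from 0) with an interval within 1 kb of a gene end, with an interval wider than 201 bp there, and with an interval over an annotated start window, for each complex and for all protein-coding genes; numbers above the bars give genes with an interval over genes counted. Complex IV has the lowest bars for gene ends (12 of 18, and 10 of 18 for wider intervals), and the background bars stand at 61.5%, 51.7% and 52.1%.

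The isoform genes were compared next. The tissue-specific isoforms had an interval at a gene end in 3 of 8 cases (37.5%) and the widely expressed isoforms in 8 of 8 (100%), against the background of 61.5%. With intervals wider than 201 bp the counts were 1 of 8 and 7 of 8. With a window of 5 kb to either side of an end, 7 of 8 tissue-specific and 8 of 8 widely expressed forms had an interval, beside 76.8% of all protein-coding genes. The difference between the isoform classes was not tested, and with 8 genes in each class a change of 1 gene moves a share by 12.5 percentage points. The median span was 1.68 kb for the tissue-specific genes and 6.51 kb for the widely expressed ones, and Cox4i2 (11.1 kb), Ndufa4l2 (7.88 kb) and Cox7b2 (105 kb) were longer than the latter median.

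Among the muscle and heart forms, Cox6a2 and Cox8b lacked an interval at their ends. The nearest interval to an end of Cox6a2 on chromosome 7 (128205435 to 128206366) was 203 bp wide and lay 1924 bp outside the gene, whereas Cox6a1, its widely expressed partner, had a 310 bp interval centred 157 bp upstream of the start. At Cox8b on chromosome 7 (140898942 to 140900446) the nearest interval, 219 bp wide, was centred 3066 bp upstream of the start, whereas the interval of Cox8a was 239 bp wide and centred 129 bp upstream. Cox7a1, also a muscle and heart form, did not follow them. It had a 252 bp interval on chromosome 7 at 30183978 to 30184229, centred 68 bp upstream of its start, and this was the only tissue-specific gene with a wider interval at an end. Its partner Cox7a2 had a 244 bp interval centred 6 bp downstream of a start that lies 11569 bp inside the gene span, and a narrow one beyond the gene end.

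Cox4i2, a lung form that is induced at low oxygen, had no interval inside its span on chromosome 2 (152753916 to 152765039), and the nearest lay 1533 bp beyond its higher-coordinate end. Cox4i1, the widely expressed form, had an interval of 230 bp over an end. The testis forms Cox7b2 and Cox8c had none at an end. Cox7b2 held 3 intervals inside its 105 kb, a density of 0.285 per 10 kb, and the nearest interval to Cox8c lay 13254 bp away. Cox6b2, another testis form, had a single interval of 201 bp inside the gene, centred 822 bp downstream of the start and outside the start window, whereas Cox6b1 had a 276 bp interval centred 67 bp upstream. Ndufa4l2, a paralogue induced at low oxygen, had a 201 bp interval 753 bp inside its higher-coordinate end, and Ndufa4 had a 267 bp interval centred 400 bp upstream of its start.

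**Figure D3:**
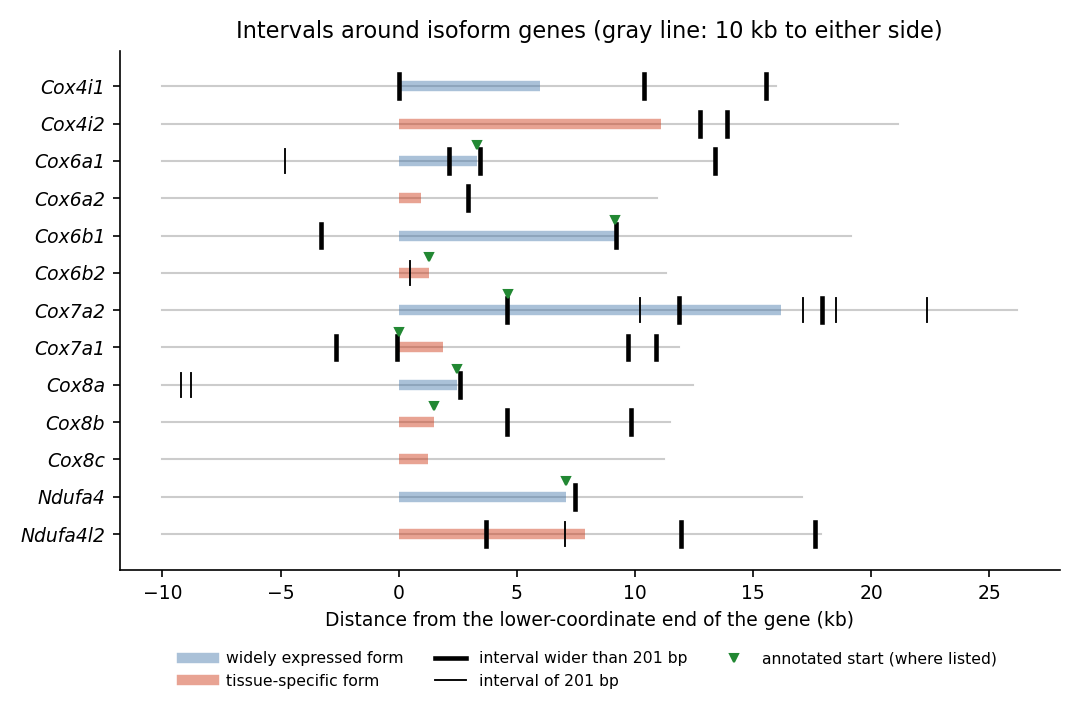
Intervals (vertical ticks, thick where wider than 201 bp) around 6 widely expressed (blue) and 7 tissue-specific (red) isoform genes, with distance in kb from the lower-coordinate end of each gene on the horizontal axis; triangles mark annotated starts where listed, gray lines the 10 kb to either side, and Cox7b, Cox7b2 (which spans 105 kb) and Cox6c are not drawn. Of the tissue-specific forms drawn, Cox7a1 has a tick at its start, and Cox4i2, Cox6a2, Cox8b and Cox8c have none within 1 kb of an end.

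The sequences before the starts of 3 isoform genes are shown to place the presence of an interval beside the base composition. Each is the 250 bases before the annotated start, from RefSeq on GRCm38.p6, with capitals marking CpG dinucleotides. They lie at chr7:30183921-30184170 on the plus strand for Cox7a1, chr19:7217617-7217866 on the minus strand for Cox8a and chr7:140900447-140900696 on the minus strand for Cox8b.
Cox7a1: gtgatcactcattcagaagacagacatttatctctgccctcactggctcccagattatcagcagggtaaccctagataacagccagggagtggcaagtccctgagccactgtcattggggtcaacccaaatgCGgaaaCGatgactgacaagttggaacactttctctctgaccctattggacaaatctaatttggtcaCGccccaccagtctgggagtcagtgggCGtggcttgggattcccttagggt
Cox8a: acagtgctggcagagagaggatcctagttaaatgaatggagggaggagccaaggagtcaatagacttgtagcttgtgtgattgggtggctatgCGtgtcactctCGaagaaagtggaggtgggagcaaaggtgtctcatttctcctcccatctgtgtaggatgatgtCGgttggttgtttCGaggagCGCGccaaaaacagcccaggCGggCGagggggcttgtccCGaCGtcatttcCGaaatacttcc
Cox8b: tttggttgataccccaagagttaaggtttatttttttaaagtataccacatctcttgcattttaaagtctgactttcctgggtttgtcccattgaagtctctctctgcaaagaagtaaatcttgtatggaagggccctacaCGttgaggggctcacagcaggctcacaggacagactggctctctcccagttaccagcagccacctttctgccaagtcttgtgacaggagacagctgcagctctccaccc
Cox8a held 11 CpG dinucleotides in these bases, Cox7a1 held 4 and Cox8b held 1. The interval at Cox7a1 thus lay over a start poor in CpG, while Cox8b, poorer still, had none.

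CpG content was then compared over all start windows. A window was called CpG-rich where its GC content was above 50% and its ratio of observed to expected CpG above 0.6. Of the 87 start windows of the oxidative phosphorylation genes 68 were CpG-rich (78.2%), beside 44.9% of the 21263 start windows of protein-coding genes. Within CpG-rich windows an interval was present in 65 of 68 (95.6%), beside 77.7% of all such windows. Among the 19 windows that were not CpG-rich, 12 had an interval (63.2%), beside 24.4% of all such windows. The share with an interval was thus higher than the background in both classes, without a test of either difference. The CpG-rich windows without an interval belonged to Ndufa4, Ndufa11 and Ndufa13. Cox7a1 (observed to expected ratio 0.33) and Cox7b (0.37) had an interval although their ratios were among the lowest, while Cox8b (0.11), Ndufb4b (0.40), Cox6b2 (0.43) and Cox7b2 (0.56) had none.

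The intervals over starts were mostly centred just upstream of the start. The start window runs from 250 bases before to 50 bases after the start, so overlap with it favours centres upstream in both sets of genes. In the 77 windows with an interval, the centre of the nearest interval lay a median of 67 bp upstream of the start, and it was upstream in 60 windows (77.9%) and within 100 bp of the start in 57 (74%). Over all protein-coding genes the median was 49 bp upstream, 70.4% were upstream and 66.5% within 100 bp. Intervals over the oxidative phosphorylation starts had a median width of 226.5 bp, with quartiles of 210.25 and 252.75 bp, and 4 of 74 had the narrowest width (5.41%). Intervals over the starts of all protein-coding genes had a median width of 213 bp, and 17.2% had the narrowest width. The oxidative phosphorylation genes with narrow intervals over a start were Sdhaf1, Sdhaf2 and Atp5j. What the width of an interval measures is not given in the sources used here, so widths are given as a description.

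**Figure D4:**
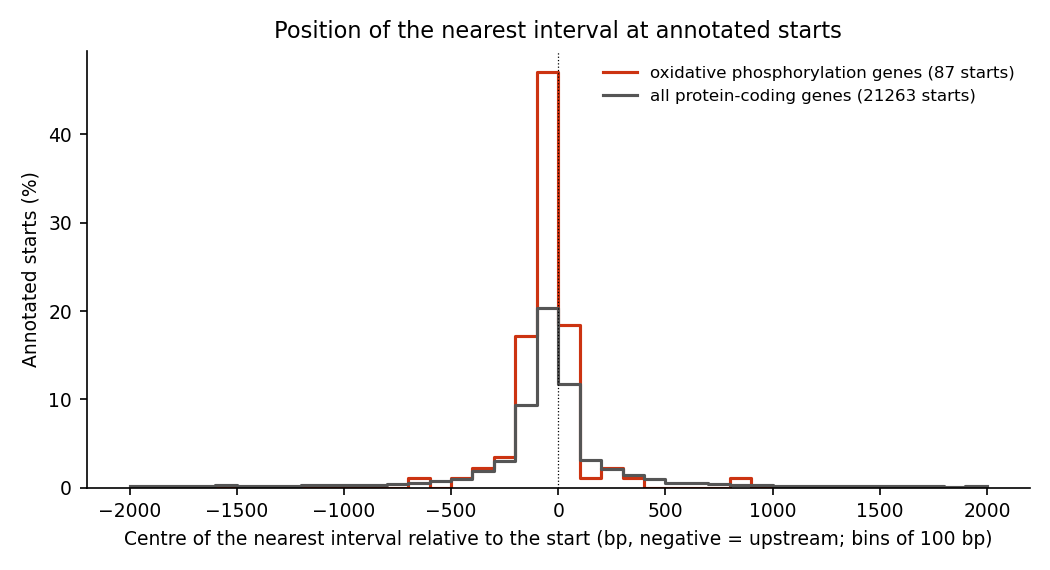
Position of the centre of the nearest interval relative to the annotated start (horizontal axis in bp, negative upstream, bins of 100 bp) as a percentage of starts (vertical axis), for 87 starts of the oxidative phosphorylation genes and 21263 starts of all protein-coding genes. In the bin from 100 bp upstream to the start lie 47.1% of the oxidative phosphorylation starts and 20.3% of all starts.

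The 10 genes with a start entry and no interval over it fell into different kinds. For 6 of them an interval lay nearby, centred 202 bp (Atp5l), 290 bp (Ndufa13) and 349 bp (Ndufs4) downstream of the start, and 400 bp (Ndufa4), 401 bp (Uqcrh) and 700 bp (Ndufa11) upstream. At Cox6b2 it was 822 bp downstream. The nearest interval was 2467 bp away at Cox7b2, 3066 bp at Cox8b and 19320 bp at Ndufb4b. Within 1000 bp of a start, 79 of 82 genes had an interval (96.3%), beside 61.7% of protein-coding genes, and the 3 without were Cox7b2, Cox8b and Ndufb4b.

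Many of the genes start back to back with a neighbour. An opposite-strand start of another gene lay within 1000 bp upstream in 24 of 82 genes (29.3%), beside 13.2% of protein-coding genes, and in 19 of the 24 a common interval overlapped both start windows (79.2%, beside 68.5% of protein-coding genes with such a neighbour). None of the 13 complex IV genes with a start entry had such a neighbour, whereas 13 of 42 complex I, 3 of 7 complex II, 2 of 5 complex III and 6 of 15 complex V genes did. Sdhd and Timm8b, a chaperone of protein import, start 52 bp apart and share the 273 bp interval, and Ndufb5 and Mrpl47, a mitochondrial ribosomal protein gene, start 308 bp apart and share one of 297 bp. Ndufa7 and the cytosolic ribosomal protein gene Rps28 start 10 bp apart and share one of 227 bp. At Ndufa4 and Phf14, at Ndufa11 and Vmac, at Ndufa13 and Tssk6, and at Uqcrh and Lrrc41 the interval did not cover the start window of the oxidative phosphorylation gene. At Ndufa5 and Asb15 the interval over the Ndufa5 start window did not reach that of Asb15. An interval between such starts cannot be assigned to either gene.

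Motifs of known regulators were searched on both strands of the start windows, and each share is set beside that of all 17492 protein-coding genes with a start entry. The full NRF1 motif, whose letters are the capitals in the NRF1 sequences printed after this, was present in 7 of 82 genes (8.54%), beside 1.47%, and the shorter form TGCGCA, which can overlap it, in 21 (25.6%), beside 11%. The YY1 motif AAGATGGCG was found in 8 genes (9.76%), beside 2.14%, and 3 of its 8 matches lay inside an interval. Over all windows the shares were near the background for the ETS motif CCGGAAGT with 5 genes (6.10%, beside 5.69%), for CCAAT with 35 (42.7%, beside 42.3%), for the E-box CACGTG with 6 (7.32%, beside 8.91%) and for the GC box GGGGCGGGG with 12 (14.6%, beside 17.3%). Because the genes differ from the background in CpG content, the shares were also taken over CpG-rich windows alone. There the full NRF1 motif stood in 7 of 68 windows (10.3%), beside 2.62% of all CpG-rich windows. The shorter form TGCGCA stood in 21 (30.9%), beside 17%, and the YY1 motif in 6 (8.82%), beside 3.46%. The GC box was in 13.2% of them, beside 27.6%, and the ETS motif in 5.88%, beside 9.06%. CCAAT was in 33.8%, beside 36%, and the E-box in 8.82%, beside 11.6%. A match is a run of letters and not a site shown to be bound, and none of these differences was tested.

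**Figure D5:**
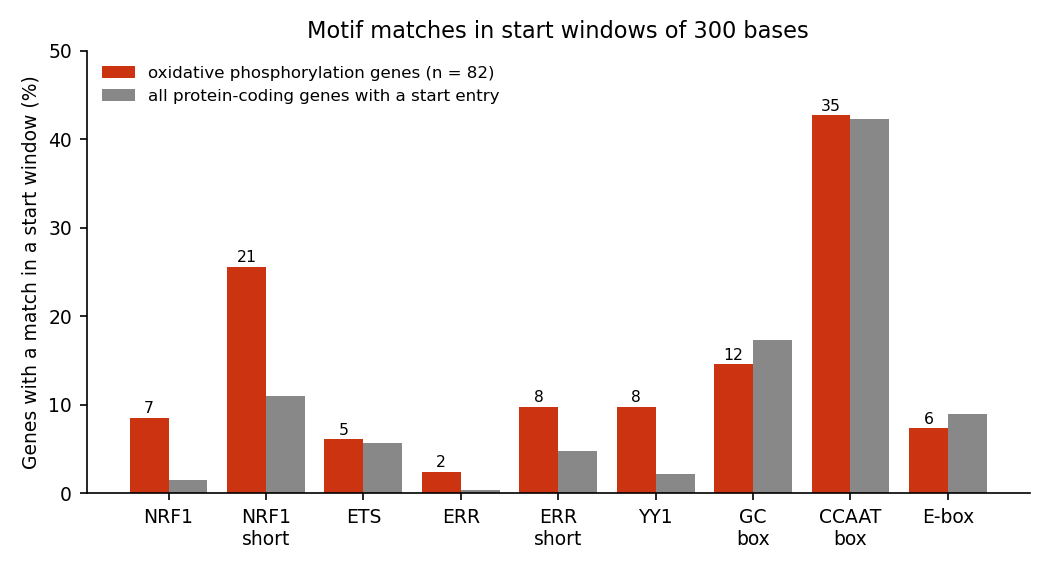
Percentage of genes with a match to each motif in a start window of 300 bases (vertical axis, from 0), for 82 oxidative phosphorylation genes (red, number of genes above the bar) and all protein-coding genes with a start entry (gray). The bars for NRF1 (8.54% and 1.47%) and YY1 (9.76% and 2.14%) are farther apart in ratio than those for CCAAT (42.7% and 42.3%).

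The genes with the full NRF1 motif were Ndufa11, Ndufaf4, Ndufaf5, Uqcrc1, Cox6a1, Atp5g2 and Atp5k, and in 6 of the 7 the motif lay inside an interval. An interval overlapped the start window in the same 6 genes, beside 81.7% of all protein-coding genes with the motif. The exception was Ndufa11, named after its values were seen, whose motif ends 51 bp before the start and whose nearest interval was centred 700 bp upstream. The motif lies before the start in 5 of the genes, for which it is shown in capitals with 20 bases to either side, from RefSeq on GRCm38.p6. The positions are chr15:102671060-102671109 (minus strand) for Atp5g2, chr5:108434420-108434469 (minus) for Atp5k, chr5:115349091-115349140 (minus) for Cox6a1, chr4:24897950-24897999 (plus) for Ndufaf4 and chr17:56717682-56717731 (plus) for Ndufa11.
Atp5g2: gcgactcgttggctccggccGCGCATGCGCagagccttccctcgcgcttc
Atp5k: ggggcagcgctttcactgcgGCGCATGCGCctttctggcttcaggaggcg
Cox6a1: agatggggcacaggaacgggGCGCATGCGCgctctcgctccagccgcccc
Ndufaf4: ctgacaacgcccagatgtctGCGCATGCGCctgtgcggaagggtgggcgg
Ndufa11: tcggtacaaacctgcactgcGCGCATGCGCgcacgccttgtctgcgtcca
The covering intervals were 214 bp wide at Atp5g2, 253 bp at Atp5k, 310 bp at Cox6a1 and 235 bp at Ndufaf4.

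The estrogen-related receptor motif TCAAGGTCA was rare, in 2 of 82 genes (2.44%), beside 0.377% of protein-coding genes. Over CpG-rich windows alone it stood in 2 of 68 (2.94%), beside 0.168%. The genes were Atp5g3 and Sdhd, and both start windows had an interval, as did 87.8% of all 82 genes searched. Of all protein-coding genes with the full motif 24.2% had one, a share not split by CpG content. At Atp5g3 the motif ends 44 bp before the start and lay inside the 215 bp interval. At Sdhd it begins 36 bp after the start, outside the 273 bp interval. The Atp5g3 site is shown because it is the only full match of this motif inside an interval at these starts, with the match in capitals, on the opposite strand, at chr2:73911350-73911398 (minus strand).
Atp5g3: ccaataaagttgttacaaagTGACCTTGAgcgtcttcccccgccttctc
The shorter form AAGGTCA, which the full motif contains, was in 8 genes (9.76%), beside 4.73%, and in 6 of 68 CpG-rich windows (8.82%), beside 2.09%. It was found in Atp5e, Atp5g3, Atp5k, Atp5l, Ndufb2, Ndufb4, Ndufs5 and Sdhd, and it lay inside an interval in 5. The start window had an interval in 7 of the 8, which is near the 87.8% of all 82 genes searched. Of all protein-coding genes with this form 34.4% had one, a share that was not split by CpG content. Of the 8, 4 were ATP synthase genes, which made up 15 of the 82 genes searched.

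Of the 324 intervals, 113 (34.9%) lay at an end or start of the gene they were counted for, 57 (17.6%) elsewhere inside it, 58 (17.9%) in a flank within 1 kb of an end of another gene and 96 (29.6%) elsewhere in a flank. These shares were not taken for all protein-coding genes, whose median span was longer. The narrowest width was held by 15.9% of those at an end or start and 49.1% of those elsewhere inside the gene. In the flanks it was held by 27.6% of those near an end of another gene and 39.6% of the others. Of all intervals in the list 46.2% had this width. Ndufs4, an accessory subunit of complex I with a span of 100 kb on chromosome 13 (114287795 to 114388094), held 11 intervals in its span, or 1.1 per 10 kb, 10 of them away from its ends. Ndufaf2, a complex I assembly factor of 106 kb on chromosome 13 (108052589 to 108158652), held 10, or 0.943 per 10 kb. Protein-coding genes of 75 to 150 kb had a median of 6 intervals in the span (quartiles 3 and 10), and 26.5% of them had 10 or more, so Ndufs4 and Ndufaf2 stood in the upper part of genes of their length. Sdhaf3, an assembly factor of complex II that spans 83.7 kb, held 4, and Cox7b2 with 105 kb held 3. In Ndufs4 the widest was 257 bp, at 114360680 to 114360936, and 7 of the 11 were 201 bp wide. In Ndufaf2 the widest pair was 273 bp (108095714 to 108095986) and 260 bp (108096976 to 108097235).

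Other genes of the pathway, from a list of electron carriers, assembly factors and regulators, were counted in the same way. The list had 60 genes, of which 59 were found in the annotation, and 55 of these (93.2%) had an interval at a gene end, beside the 61.5% of all protein-coding genes. All 5 electron carriers had one, Cycs (cytochrome c) and Cyc1 (cytochrome c1 of complex III) among them, as did all 8 complex I, all 6 complex III and all 22 complex IV assembly factors. Of the 4 genes for the assembly or inhibition of complex V, 2 had one. Atpaf2 and Atpif1 did not, although Atpaf2 had an interval over a start window. Of the 14 genes of mitochondrial DNA expression and its regulators 12 had one, Nrf1, Gabpa, Tfam and Esrra among them, and Esrrb and Gabpb1 did not, although both had an interval over a start window. Gabpa starts 148 bp from a start of Atp5j on the opposite strand, and a common interval overlapped both start windows, so it was counted for both genes.

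Proteasome subunit genes and cytosolic ribosomal protein genes, which like these genes are expressed in most cells, were counted in the same way. An interval lay at a gene end in 45 of 51 proteasome genes (88.2%) and 78 of 84 ribosomal protein genes (92.9%), and over a start window in 36 of 43 (83.7%) and 54 of 64 (84.4%). For the oxidative phosphorylation genes these values were 90% and 87.8%. Intervals wider than 201 bp lay at an end in 76.5% of proteasome genes, 82.1% of ribosomal protein genes and 85% of oxidative phosphorylation genes, and the differences between the gene families were not tested.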

How the data were processed

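ATAC-seq libraries came from liver, 3 of C57BL/6J and 3 of 129S1/SvImJ mice. The submitters' processing notes name fastp, Bowtie2, HOMER and mm10 without versions or roles; for read shifts, duplicate and mitochondrial filters, peak thresholds and the rule of combination, details were not given in the sources used here. The authors deposited one list with 3 columns, of interval positions combined over libraries; these are other values than counts or scores, with no depth.

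Starts were converted to 1-based positions. Genes came from RefSeq (GRCm38.p6, 21887 protein-coding), with start windows and sequences from its promoter table. Overlap by at least 1 bp counted. No test was made, because genes are not replicates and no library could be told apart. Overlap and motif counting were tested on simulated data. Python 3.11.15, pandas 2.3.3 and numpy 2.4.6 were used. Members and lists were chosen with earlier results of these data known. Genes named were, per complex, the 3 with the most intervals, all without an interval at an end, the isoforms, the core subunits, the 5 widest end intervals and genes with an interval over a start that holds the full NRF1 or estrogen-related receptor motif; others were chosen after their values were seen. One gene that the rule names is not reported here by name. Alternatives were other windows and flanks, interval centres, wider intervals, joined intervals, structural subunits and another background.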

Additional observations from a re-analysis of the deposited data

How the results depend on the processing

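No paired analysis was possible because the list holds no value per library, and no replicate could be left out. Counts of oxidative phosphorylation genes with an interval stayed within 1.5 times the reported count under the windows, flanks and other choices tried, with the following exceptions. Tissue-specific isoforms with an interval at an end numbered 7 of 8 with a window of 5 kb, when all 8 widely expressed forms had one too, and 1 of 8 with intervals wider than 201 bp, beside the reported 3 of 8. Complex II fell to 4 of 4 genes with structural subunits alone, because 4 assembly factors were left out. The median of 3 intervals per gene became 1 without flanks, 8.5 with flanks of 50 kb and 2 with wider intervals, and the median of all protein-coding genes was 1, 8 and 2 under these settings. Moving Ndufa4 and Ndufa4l2 to complex IV, chosen after seeing the data, gave 14 of 20 there. Without chemoreceptor, Gm- and Rik-named genes the background at gene ends was 69% in place of 61.5%. Depth was unknown, so a missing interval does not show closed chromatin.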
